A study of Homo sapiens with 4 samples.

Results

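The 10 genes described here encode cytokines of the interleukin-6 family, interleukin-10, and the receptor chains that bind them. They were taken from a list of names (IL6, LIF, OSM, IL11, IL10, IL6R, IL6ST, LIFR, IL10RA and IL10RB) that sets no threshold on a measured value but was drawn up with earlier results of these data known. They are represented by 24 of 54675 probe sets, or 10 of the 19775 genes that have a probe set of their own. They were measured in KM-H2, an established cell line from a Hodgkin lymphoma. Of 4 Affymetrix arrays, 2 hold RNA from PTPN1 knockdown cells and 2 hold RNA from non-silencing control cells, and the labels do not say how the knockdown was made or for how long. All 4 arrays share the cell line, the culture conditions and a 2-cycle amplification of the RNA. The arrays of a group are described by the series as technical replicates, numbered 1 and 2, so the errors below cover the spread between arrays and not between cultures. A value is a log2 RMA signal, in which 1 unit is a doubling, and a difference is knockdown minus non-silencing. With 2 arrays a group, the number of arrays limits the precision of every value.

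PTPN1 encodes a tyrosine phosphatase that acts on JAK kinases. The cytokines considered here signal through those kinases: interleukin-6, leukaemia inhibitory factor (LIF), oncostatin M (OSM) and interleukin-11 bind receptors that contain gp130, the product of IL6ST, while interleukin-10 binds the IL10RA and IL10RB chains. In both cases JAK kinases phosphorylate STAT3, which enters the nucleus and switches on target genes, among them SOCS3, which encodes a feedback inhibitor of gp130. Hodgkin lymphoma cells are known to make several cytokines to which they can themselves respond. The measurement asked whether the ligands or receptors of this circuit differed when PTPN1 was reduced.

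The genes lie on several chromosomes of GRCh38.p14, with LIF (chromosome 22, 30240453 to 30246759) and OSM (chromosome 22, 30262829 to 30266851) near each other. IL6 lies on chromosome 7 (22727200 to 22731998), IL6R on chromosome 1 (154405343 to 154469450) and IL6ST on chromosome 5 (55935095 to 55994963). LIFR is also on chromosome 5 (38474668 to 38608403), IL11 on chromosome 19 (55364382 to 55370463) and IL10 on chromosome 1 (206767602 to 206772494). IL10RA lies on chromosome 11 (117986394 to 118003037) and IL10RB on chromosome 21 (33266367 to 33310182).

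Promoter windows from RefSeq, 250 bases before to 50 bases after an annotated start in GRCh38.p14, were found for 8 of the 10 genes, in 12 windows, but not for LIF and OSM. The windows of IL6 (chr7:22726950-22727249, plus strand), IL6R (chr1:154405093-154405392, plus strand) and IL6ST (chr5:55994914-55995213, minus strand) are shown because they belong to a ligand and the 2 chains of its receptor, and because IL6 had the largest difference of the 10. Each is written 5′ to 3′ along its gene, with matches to the 4 searched motifs in capitals.
IL6: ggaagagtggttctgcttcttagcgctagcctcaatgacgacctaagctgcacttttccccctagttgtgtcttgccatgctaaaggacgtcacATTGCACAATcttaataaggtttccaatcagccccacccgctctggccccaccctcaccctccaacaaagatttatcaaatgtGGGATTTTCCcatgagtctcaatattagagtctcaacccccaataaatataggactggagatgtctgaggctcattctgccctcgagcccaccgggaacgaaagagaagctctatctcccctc
IL6R: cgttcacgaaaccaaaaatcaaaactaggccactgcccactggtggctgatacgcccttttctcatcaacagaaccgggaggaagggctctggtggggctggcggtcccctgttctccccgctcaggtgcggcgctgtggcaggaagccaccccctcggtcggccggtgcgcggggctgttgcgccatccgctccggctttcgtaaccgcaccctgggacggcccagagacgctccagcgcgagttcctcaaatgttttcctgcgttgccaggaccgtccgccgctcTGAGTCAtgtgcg
IL6ST: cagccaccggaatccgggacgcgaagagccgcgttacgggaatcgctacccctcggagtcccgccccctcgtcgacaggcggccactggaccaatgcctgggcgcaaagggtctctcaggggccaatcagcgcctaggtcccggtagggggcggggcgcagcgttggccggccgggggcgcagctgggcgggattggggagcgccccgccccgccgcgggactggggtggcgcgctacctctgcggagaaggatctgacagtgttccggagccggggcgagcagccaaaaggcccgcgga
The motifs were searched on both strands, as GGG, 2 free bases and TTTCC for NF-kB, as TGANTCA for AP-1, as ATTGC, 2 free bases and AAT for C/EBP and as TTCNNNGAA for STAT, and no match overlapped another. The IL6 window held GGGATTTTCC from position -73 to -64, counted from the annotated start, and ATTGCACAAT from -156 to -147. The NF-kB letters occurred in 1.91% and the C/EBP letters in 0.601% of all 35116 windows in the table. The AP-1 letters, present in 7.71% of all windows, occurred in the windows of IL6R, IL11 and IL10RA and in 1 window of IL10. The STAT letters, present in 7.66%, occurred in 2 windows of LIFR and in that of IL10RB. The windows of LIFR and IL10RA, and the IL10 window with the AP-1 letters, lie wholly inside the gene bounds given above. These matches describe letters in the reference sequence and are not evidence of binding.

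The main probe set of the targeted gene, PTPN1, read 7.002 and 7.36 in the knockdown arrays, against 8.16 and 8.40 in the non-silencing arrays, both knockdown arrays being lower. Its other 3 probe sets differed by 0.01, -0.03 and -0.07, and the mean of all 4 by -0.30. Here the main probe set of a gene is the one with the highest mean over the 4 arrays. Markers of Hodgkin and Reed-Sternberg cells were present, with median levels over 10 genes of 9.31 and 8.997 in the knockdown arrays, against 8.77 and 8.76 in the non-silencing arrays, and their summed linear signal was 14084 and 14274 against 12290 and 13126. In that list 9 of 10 lay above 0, with a median difference of 0.26, where 48.2% of all genes did so, with a median of -0.0066. The exception was CCL22, which read from 5.27 to 5.52 over the arrays. Both knockdown arrays were lower than both controls for CCL22, by -0.14 on average. Markers of mature B cells (9 of 10 measured), T cells (8 of 8), monocytes and macrophages (7 of 8) and fibroblasts (7 of 7) had median differences of -0.10, -0.02, 0.02 and 0.03. The array medians were 5.10 to 5.12. Of the B cell genes, CR2 read from 12.46 to 12.68 over the arrays, PAX5 from 7.17 to 7.60 and BLK from 6.83 to 7.40, while MS4A1 read from 4.40 to 5.198 and FCRL1 from 2.93 to 3.85. Of the T cell genes, CD3D read from 9.76 to 10.36 and CD3G from 7.06 to 7.63, while CD3E read from 4.78 to 4.88 and TRAT1 from 2.48 to 3.24. Among monocyte and macrophage genes, CD14 read from 6.21 to 7.63 and CSF1R from 6.88 to 7.08, while LYZ read from 3.88 to 4.26. Among fibroblast genes, COL1A1 read from 8.63 to 10.01, with a difference of -0.48, while COL3A1 read from 3.60 to 3.90. The part of these markers in the results below was not tested. For beta-actin, the 3′ minus the 5′ control signal, which follows RNA integrity and amplification, was 1.33 in knockdown array 1 and 1.31 in non-silencing array 1. It was 0.969 in knockdown array 2 and 0.972 in non-silencing array 2.

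Across all 54675 probe sets, limma called 0% at an adjusted p under 0.05, and 0 of the 24 probe sets of these genes. At an unadjusted p under 0.05, limma had 2.5% of all probe sets (1369) and 4 of the 24. By direction it had 1.45% of all probe sets on the higher side and 1.06% on the lower side, and 2 of the 24 on each. Those 4 were a pair of IL6ST probe sets with positive differences and a pair of LIFR probe sets with negative ones. Probe sets of a gene can measure the same transcripts, so they cannot be taken as independent. The adjusted p of each of the 24 was 1.0 in limma, rounded. Both knockdown arrays lay above both non-silencing arrays for 4 of the 24 probe sets, where 13.4% of all probe sets did so, and below them for 5, where 15.3% of all did so. These shares of 16.7% and 20.8% rest on few probe sets. The median difference of the 24 was 0.04, beside 0.00 over all probe sets (-0.0050 before rounding).

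Among the ligands, IL6, an inflammatory cytokine that promotes the growth of plasma cells, stood furthest from its control. Its single probe set, 205207_at, read 9.11 and 6.97 in the knockdown arrays, against 6.65 and 6.71 in the non-silencing arrays. Both knockdown values were higher than both controls, but most of the distance lay in knockdown array 1. The mean difference was 1.36 (SE 0.67, 95% interval from -0.33 to 3.05, n = 2 each), or 2.57-fold, and did not pass (limma adjusted p = 1.0). Within the arrays numbered 1 the difference was 2.46, a fold of 5.50, and within those numbered 2 it was 0.26, a fold of 1.199. Without knockdown array 1 it was 0.29, and without knockdown array 2 it was 2.43. The knockdown arrays differed from each other by 2.15 and the non-silencing arrays by 0.05. It was the 1 probe set of the 24 with an at least 2-fold higher mean, a size reached by 0.274% of all probe sets, while 0.0951% were at least 2-fold lower. No second probe set was there to compare.

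LIF, OSM and IL11, whose products act through gp130 as IL-6 does, differed little. LIF, which keeps embryonic stem cells undifferentiated in mice, read 6.31 and 5.82 in the knockdown arrays, against 5.96 and 5.86 in the non-silencing arrays. The groups overlapped, since knockdown array 1 was the highest of the 4 and knockdown array 2 the lowest, and the difference of 0.15 had an SE of 0.20 (95% interval from -0.34 to 0.65). Without knockdown array 1 the LIF difference was -0.09. The brighter OSM probe set, 214637_at, read 5.21 and 5.16 in the knockdown arrays, against 5.28 and 5.31 in the non-silencing arrays. The knockdown arrays were thus the lower pair, by -0.11 (SE 0.12), whereas the second OSM probe set differed by 0.04, at -0.26 and 0.33 within the array numbers.

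IL11, a cytokine of bone and stromal tissue, read 5.31 and 5.27 in the knockdown arrays, against 5.27 and 5.35 in the non-silencing arrays, with its brighter probe set 206926_s_at. These values overlapped and differed by -0.02 (SE 0.13, 95% interval from -0.33 to 0.30). The dimmer IL11 probe set, 206924_at, differed by 0.22 (SE 0.18), and 14.9% of all probe sets had a lower mean. For LIF the share of probe sets with a lower or equal mean was 64.1%, and for the main probe sets of OSM and IL11 it was 52.6% and 53.9%. The table holds no detection calls, so values in this range cannot be told from background.

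**Figure D1:**
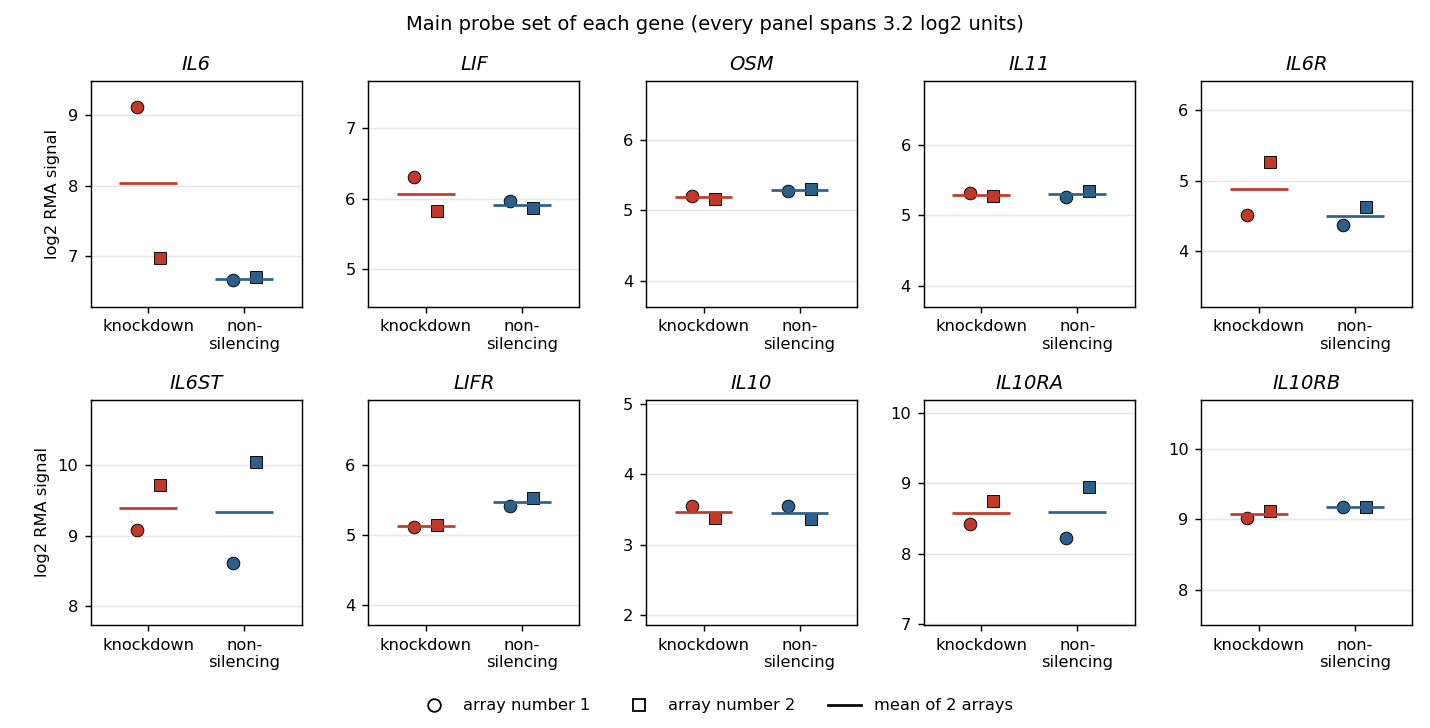
Log2 RMA signal of the main probe set of each of the 10 genes, knockdown left and non-silencing right, with circles for arrays numbered 1, squares for arrays numbered 2 and bars for the mean of 2 arrays. IL6 stands at 9.11 in knockdown array 1 and between 6.65 and 6.97 in the other 3 arrays, while IL6ST and IL10RA are higher in the arrays numbered 2 of both groups.

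The 3 receptor chains of the gp130 family differed in different directions, and none passed. IL6R, the chain that binds interleukin-6 and can be shed in soluble form, read 4.51 and 5.27 in the knockdown arrays, against 4.37 and 4.62 in the non-silencing arrays, with its main probe set 226333_at. Knockdown array 2 was the highest, and knockdown array 1 lay between the controls. The difference was 0.39 (SE 0.27, 95% interval from -0.30 to 1.08) and ranged from 0.016 without knockdown array 2 to 0.77 without knockdown array 1. The remaining IL6R probe sets differed by 0.30 and 0.06, so that all 3 lay above 0, and 205945_at had the groups apart. For these 3 probe sets the shares of all probe sets with a lower or equal mean were 40.02%, 20.1% and 15.9%.

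IL6ST encodes gp130, the signalling chain shared by the family, and was covered by 7 probe sets that disagreed. The brightest, 212195_at, read 9.08 and 9.72 in the knockdown arrays, against 8.61 and 10.05 in the non-silencing arrays. The knockdown values lay inside the range of the controls, and the difference of 0.07 had an SE of 0.50 (95% interval from -1.19 to 1.32). Between the arrays numbered 2 and those numbered 1 this probe set differed by 0.64 in the knockdown arrays and by 1.44 in the non-silencing arrays, and its difference was 0.47 within number 1 and -0.33 within number 2. The beta-actin values given above also separate the array numbers, and their part in this was not tested.

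A pair of dimmer IL6ST probe sets had the groups apart. The first, 211000_s_at, read 6.41 and 6.40 in the knockdown arrays, against 5.71 and 6.14 in the non-silencing arrays, a difference of 0.48 (SE 0.18, 95% interval from 0.02 to 0.93). The second, 204863_s_at, read 5.97 and 6.08 in the knockdown arrays, against 5.47 and 5.75 in the non-silencing arrays, a difference of 0.42 (SE 0.16, 95% interval from 0.02 to 0.81). Both were higher in knockdown within each array number, at 0.69 and 0.26 for the first and 0.50 and 0.33 for the second. These intervals are not adjusted for the number of probe sets, and the limma adjusted p was 1.0 for both. For 211000_s_at and 204863_s_at, 66.1% and 62.0% of all probe sets had a lower or equal mean, near the 64.1% of LIF. Without detection calls, their signals cannot be told from background either. The remaining 4 IL6ST probe sets differed by 0.24, 0.04, -0.34 and -0.05, and the mean of all 7 differed by 0.12.

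LIFR encodes the chain that joins gp130 to bind LIF and OSM, and its main probe set was lower in knockdown whichever array was left out. Its main probe set, 227771_at, read 5.12 and 5.14 in the knockdown arrays, against 5.41 and 5.53 in the non-silencing arrays. Both knockdown arrays were lower than both controls, by -0.34 on average (SE 0.13, 95% interval from -0.67 to -0.02), and by -0.29 and -0.39 within the array numbers. A dimmer LIFR probe set, 205876_at, read 4.22 and 4.08 in the knockdown arrays, against 4.47 and 4.96 in the non-silencing arrays, a difference of -0.57 (SE 0.20). Of the other 3, 225575_at and 225571_at differed by -0.34 and -0.43 and 229185_at by 0.03, so that 4 of 5 lay below 0. Without 1 array the main probe set ranged from -0.40 to -0.28. None passed (limma adjusted p = 1.0), and between 23.4% and 53.8% of all probe sets had a mean as low as theirs or lower.

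The interleukin-10 arm, an anti-inflammatory pathway that also runs through STAT3, showed little difference in its ligand or its receptor. IL10 read 3.55 and 3.37 in the knockdown arrays, against 3.54 and 3.37 in the non-silencing arrays. The same-numbered arrays were nearly equal, with differences of 0.0088 and 0.0029, and the mean difference of 0.01 had a 95% interval from -0.36 to 0.37. Only 11.01% of all probe sets had a mean as low or lower, so the IL10 signal cannot be told from background. IL10RA, the chain that binds interleukin-10, read 8.42 and 8.75 in the knockdown arrays, against 8.22 and 8.95 in the non-silencing arrays. Its knockdown values lay inside the range of the controls, and the difference of 0.00 (-0.0042 before rounding) had a 95% interval from -0.70 to 0.69. As with IL6ST, the arrays numbered 2 were higher in both groups, by 0.33 in the knockdown arrays and 0.73 in the non-silencing arrays. IL10RB, an accessory chain shared with other cytokines of the family, read 9.02 and 9.11 in the knockdown arrays, against 9.17 and 9.17 in the non-silencing arrays. The knockdown arrays were the lower pair, by -0.10 (SE 0.13, 95% interval from -0.42 to 0.22).

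Set side by side as ligand and receptor pairs, the 2 array numbers gave different accounts. Within the arrays numbered 1, IL6 differed by 2.46, IL6R by 0.14 and IL6ST by 0.47, all by main probe sets. Within those numbered 2 the same genes differed by 0.26, 0.64 and -0.33. For LIF and its receptor the differences were 0.35 for LIF, -0.29 for LIFR and 0.47 for IL6ST within number 1. Within number 2 they were -0.04, -0.39 and -0.33. For IL10, IL10RA and IL10RB they were 0.01, 0.20 and -0.15 within number 1, and 0.00, -0.20 and -0.06 within number 2. Over all 24 probe sets, 7 were above 0 in both numbers, 8 below 0 in both, and 9 had opposite signs. Among all 54675 probe sets of the arrays, these counts were 15125, 15573 and 23977. In bulk RNA of this kind, less transcript per cell and fewer cells with it cannot be told apart.

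**Figure D2:**
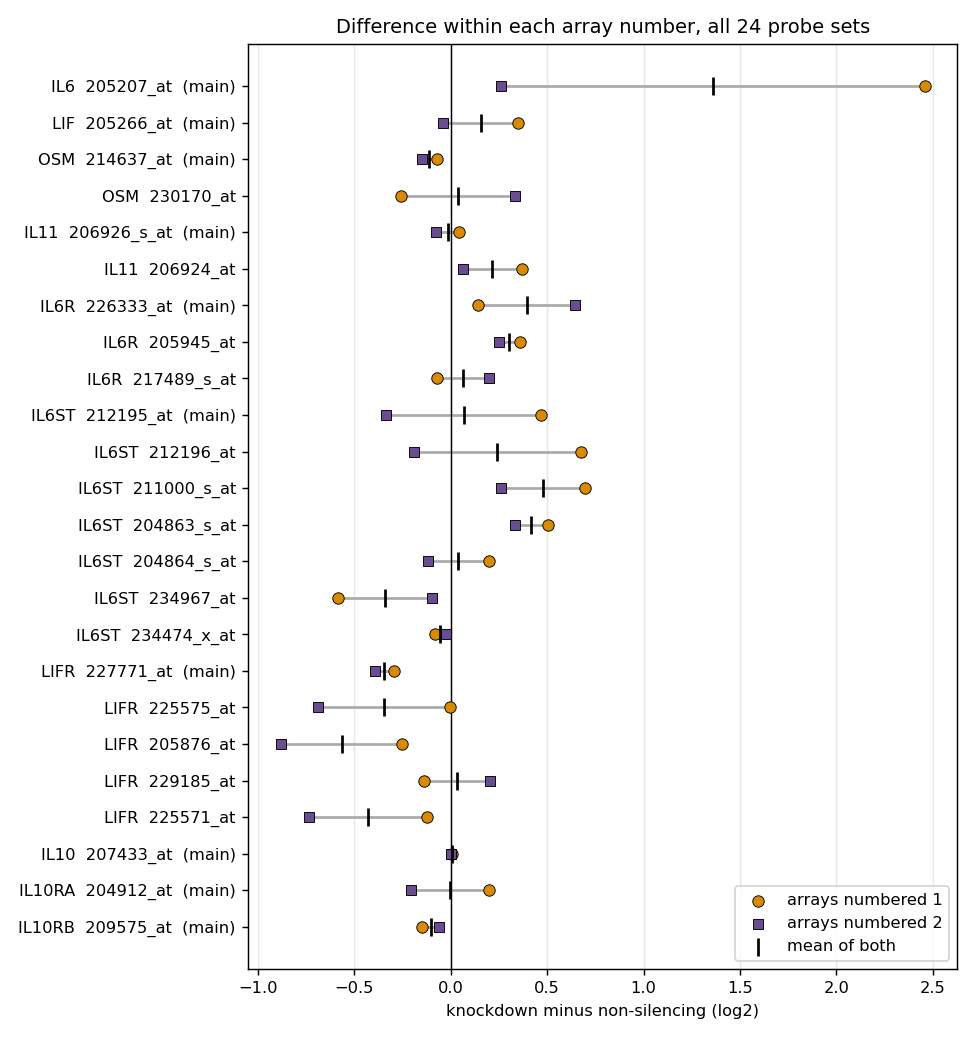
Knockdown minus non-silencing difference (log2) of all 24 probe sets within the arrays numbered 1 (circles) and numbered 2 (squares), with the mean of both as a tick. IL6 has the widest gap, from 0.26 to 2.46, and the LIFR probe sets lie at or below 0 apart from 229185_at, which is at 0.20 within number 2.

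Knockdown array 1 was the array that set IL6 apart, and few other probe sets shared this. It lay at least 1 log2 unit above each of the other 3 arrays in 33 of 54675 probe sets (0.0604%), which name 22 genes, with 8 probe sets unnamed here. IL6 had rank 4 of the 33, with a lead of 2.15 over the next array. The highest was 227697_at of SOCS3, with a lead of 3.04, and STAT3 appeared with the probe sets 208992_s_at and 208991_at, with leads of 1.37 and 1.19. These 4 probe sets belong to 3 of the 72 measured genes among the 10 and the pathway lists below. Corresponding counts were 65 for knockdown array 2, 12 for non-silencing array 1 and 24 for non-silencing array 2, with 0 of the 24 probe sets in each. The beta-actin values were 1.33 in knockdown array 1 and 1.31 in non-silencing array 1, and the part of RNA integrity or amplification in this was not tested.

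By the root mean square distance between values centred on their 4-array mean, the genes nearest to IL6 among 19765 others were MYOF (distance 0.16), IL21 (0.21), TPRG1 (0.28), LGI1 (0.30) and NAPSB (0.30). IL21, a cytokine of T helper cells that also signals through STAT3, read 7.61 and 5.06 in the knockdown arrays, against 4.80 and 4.63 in the non-silencing arrays. MYOF, which encodes the membrane repair protein myoferlin, read 9.57 and 7.51 in the knockdown arrays, against 7.03 and 7.51 in the non-silencing arrays. In each of these genes knockdown array 1 was the highest, and the groups overlapped for MYOF, TPRG1 and NAPSB. STAT3 had rank 7 at a distance of 0.43. These distances over 4 arrays are a description.

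**Figure D3:**
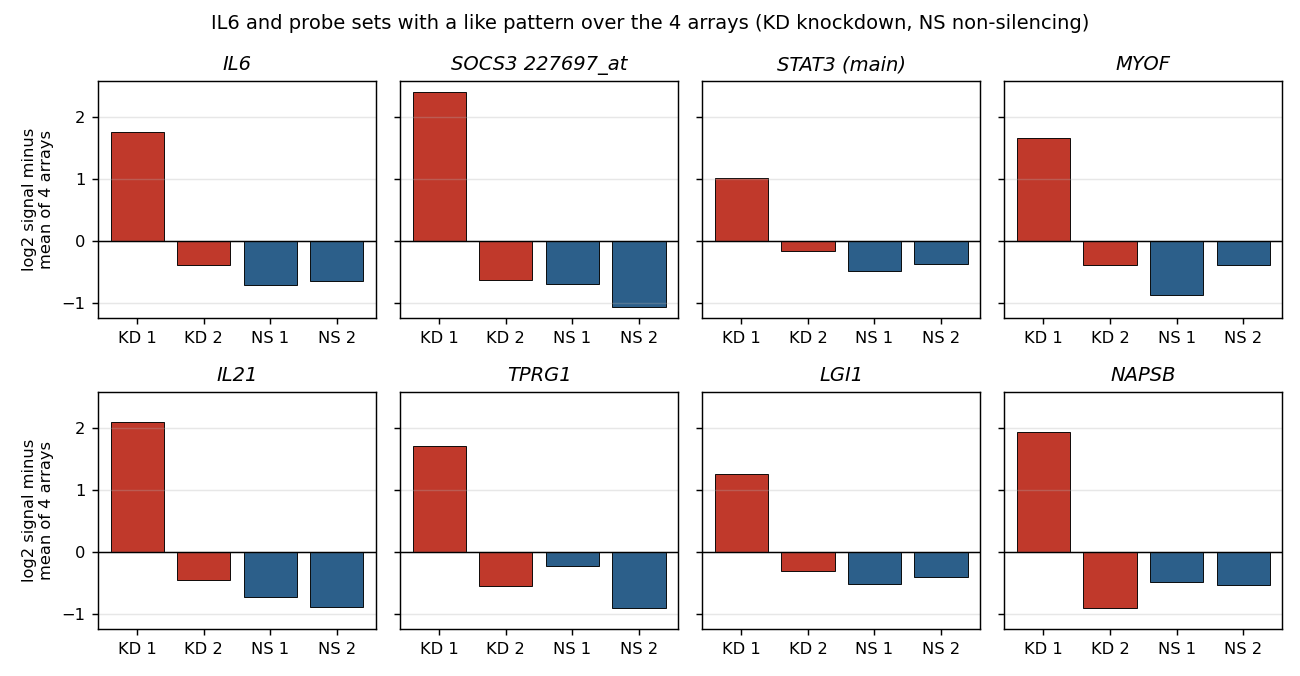
Log2 signal minus the mean of the 4 arrays for IL6, the SOCS3 probe set 227697_at, the main STAT3 probe set and the 5 genes nearest to IL6, with knockdown arrays (KD, red) left of non-silencing arrays (NS, blue). In every panel the bar of knockdown array 1 is the highest, and the other 3 arrays lie below the mean.

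Among the signalling proteins below these receptors, STAT3 was the 1 gene that met the rule for naming, a difference of at least 0.5 with the groups apart. Its main probe set, 208991_at, read 9.66 and 8.47 in the knockdown arrays, against 8.16 and 8.28 in the non-silencing arrays. Knockdown array 1 again stood above the rest, and the difference was 0.85 (SE 0.39), with 1.503 and 0.20 within the array numbers and 0.26 without knockdown array 1. The other 3 STAT3 probe sets differed by 0.68, 0.56 and 0.02. Of 8 measured signalling genes, 6 lay above 0 and 3 had the groups apart on the higher side, where 12.4% of all genes did so by main probe set. The kinase genes JAK1, JAK2 and TYK2 differed by -0.04, 0.10 and 0.08, and PTPN11, which encodes the phosphatase SHP2 recruited to gp130, by 0.23. No gene of this list passed.

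SOCS3 probe sets disagreed, and this gene was singled out after its values were seen. The main one, 206360_s_at, read 5.31 and 5.35 in the knockdown arrays, against 5.43 and 5.36 in the non-silencing arrays, a difference of -0.07. In contrast, 227697_at read 7.61 and 4.57 in the knockdown arrays, against 4.52 and 4.14 in the non-silencing arrays. It was high in knockdown array 1 alone, with a difference of 1.77 (SE 0.95) that was 3.10 and 0.44 within the array numbers. Another SOCS3 probe set, 206359_at, read 5.62 and 4.63 in the knockdown arrays, against 4.72 and 4.59 in the non-silencing arrays. It too was highest in knockdown array 1, and the last probe set differed by -0.14. Over the SOCS3 probe sets, 45.0% to 55.1% of all probe sets had a lower or equal mean. Dim signals therefore limit this comparison. Among 8 inhibitors and shedding proteases, 3 lay above 0, and PTPN1 itself was the gene named by the rule, at -1.10 (SE 0.18), and did not pass (limma adjusted p = 1.0). SOCS1, an inhibitor of JAK kinases, differed by 0.13, and ADAM10 and ADAM17, proteases that can release soluble IL6R, by -0.01 and 0.03.

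In the wider cytokine families the rule named EBI3, which encodes a subunit of interleukins 27 and 35. EBI3 read 11.49 and 11.82 in the knockdown arrays, against 10.67 and 11.21 in the non-silencing arrays. Both knockdown arrays were higher, by 0.71 (SE 0.23), and by 0.82 and 0.61 within the array numbers. The EBI3 difference was 0.44 without non-silencing array 1 and 0.98 without non-silencing array 2. IL27, whose product pairs with EBI3, differed by -0.25, and of 4 measured ligands of the interleukin-6 family outside the 10 genes, 3 lay below 0. The 5 other receptor chains of that family all had overlapping groups, as did 14349 of all 19775 genes by main probe set. Differences of the 5 chains ran from IL31RA at -0.85 (SE 0.47) to CNTFR at 0.19, with IL11RA at -0.19 and OSMR at -0.27. Of 6 further ligands of the interleukin-10 family 3 lay above 0, with a median of 0.01, and of its 5 further receptor chains 3 did, with a median of 0.02. Over all genes 48.2% lay above 0, with a median of -0.0066. None of these passed in limma.

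Genes known as targets of STAT3, which lies below these receptors, were also examined, though other cytokines such as IL21 also signal through STAT3. Of 29 measured, 19 lay above 0 and the median difference was 0.20, beside -0.0066 over all genes. Groups were apart on the higher side for 8 and on the lower side for 4, where 12.4% and 15% of all genes were. Within the arrays numbered 1 the median was 0.37 with 22 above 0, and within those numbered 2 it was 0.01 with 15 above 0. Without knockdown array 1 the median was 0.02 with 15 of 29 above 0, and without non-silencing array 1 it was 0.08. The list was chosen with earlier results of these data known, so its count is a description.

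The rule named 4 of these targets. CCND1, which encodes cyclin D1, read 4.56 and 4.35 in the knockdown arrays, against 6.39 and 4.63 in the non-silencing arrays, and its distance lay mainly in non-silencing array 1. Its difference of -1.05 (SE 0.56) was -0.17 without that array. The second CCND1 probe set, 208712_at, read 3.13 and 3.48 in the knockdown arrays, against 6.40 and 3.80 in the non-silencing arrays. It differed by -1.80 (SE 0.81) with the groups apart, and by -3.27 and -0.32 within the array numbers. For this probe set, 27.5% of all probe sets had a lower or equal mean. STAT3, itself a STAT3 target, is described above. BCL6, whose product represses transcription in the germinal centre, read 8.96 and 8.73 in the knockdown arrays, against 8.22 and 8.05 in the non-silencing arrays. This main probe set was higher in both knockdown arrays by similar amounts, 0.71 on average (SE 0.15), and 0.60 without knockdown array 1. The dimmer BCL6 probe sets were less even. Within the arrays numbered 1 and those numbered 2, 215990_s_at differed by 0.89 and 0.22. For 228758_at, whose groups overlapped, these values were 0.75 and 0.28. IL2RA, the alpha chain of the interleukin-2 receptor, read 5.52 and 4.63 in the knockdown arrays, against 4.33 and 4.56 in the non-silencing arrays. Its difference of 0.63 was 0.19 without knockdown array 1. The second IL2RA probe set, 211269_s_at, differed by 0.35 with the groups overlapping, and by -0.06 within the arrays numbered 2. For the main probe sets of IL2RA and CCND1, 41.6% and 47.2% of all probe sets had a lower or equal mean, so dim signals limit both. No target passed (limma, 0 of 29 at an adjusted p under 0.05, and 1 at an unadjusted p under 0.05).

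**Figure D4:**
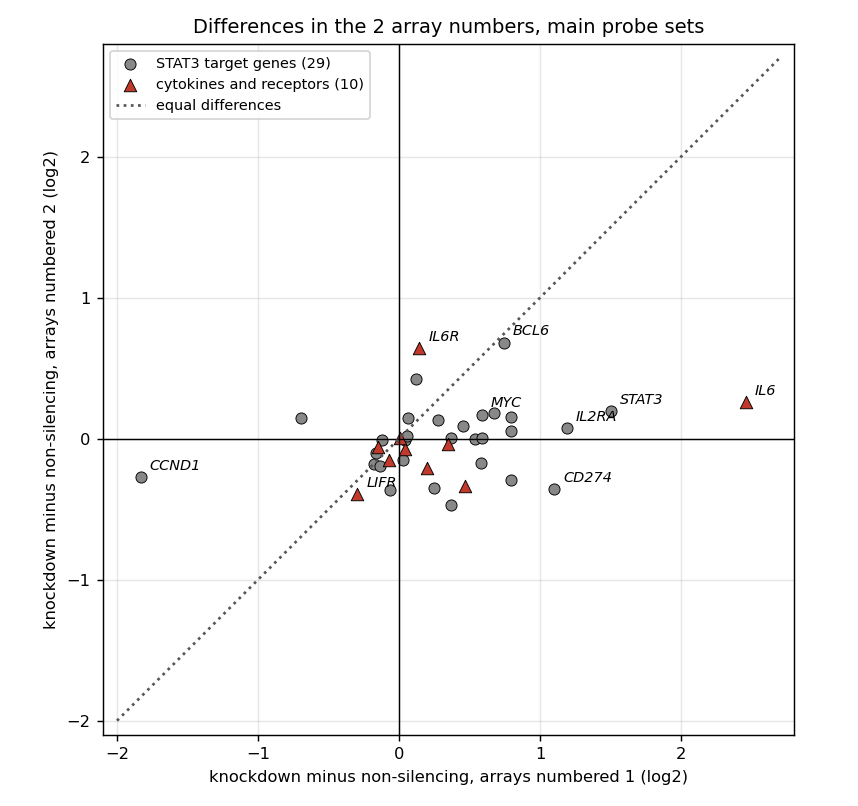
Knockdown minus non-silencing difference (log2) within the arrays numbered 1 (horizontal axis) against that within the arrays numbered 2 (vertical axis), by main probe set, for 29 STAT3 target genes (grey circles) and the 10 cytokine and receptor genes (red triangles), with a dotted line of equal differences. IL6 and STAT3 lie far to the right at 2.46 and 1.503 but low at 0.26 and 0.20, while BCL6 lies near the dotted line at 0.74 and 0.68.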

How the data were processed

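Expression was measured on 4 Affymetrix arrays of KM-H2 RNA, 2 knockdown and 2 non-silencing, grouped by their titles. The deposited values are log2 signals, for which the submitters' processing notes name RMA. That method corrects background, equalises array distributions and summarises probe sets, so that a change in total RNA cannot be seen. The software version is not given in the sources here. Gene symbols came from the platform's annotation, checked by gene identifier in RefSeq (GRCh38.p14). Of 54675 probe sets, 41097 had 1 symbol, and only these were named.

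All probe sets were fitted with limma 3.58.1 in R 4.3.3 (lmFit and eBayes, no covariates), two-sided, with Benjamini-Hochberg adjustment over all of them and a threshold of 0.05. Intervals are limma's 95% intervals, unadjusted. Pathway genes were named by main probe set where the difference was at least 0.5 with the groups apart, at most 4 a list. Other pathway genes given with a value (the JAK kinases, PTPN11, SOCS1, the proteases, IL27 and receptor chains) fall outside that rule and were picked for their role after values were seen. The genes nearest to IL6 were the 5 with the smallest distance over the 4 arrays. Members and lists were chosen with earlier results of these data known. Genes without a probe set naming only them are not analysed here. Alternatives were quantile normalization, centring, other probe sets, a filter on dim probe sets, a replicate block, 3 other variance settings, limma's treat with a fold of 1.2, and leaving out each array. Those for groups apart and for the median of STAT3 targets were chosen after seeing the data.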

Additional observations from a re-analysis of the deposited data

How the results depend on the processing

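Of 80 recomputed differences of the 10 genes, 65 kept their direction, 15 changed it and 0 passed the threshold, with a lowest limma adjusted p of 0.337. The 15 belong to LIF, OSM, IL11, IL6ST, IL10 and IL10RA. Without 1 array LIF ranged from -0.089 to 0.40, IL11 from -0.055 to 0.023, IL6ST from -0.65 to 0.79, IL10 from -0.084 to 0.095 and IL10RA from -0.37 to 0.36. OSM was 0.039 with the probe set of second highest mean. IL11 was 0.0029 with quantile normalization, 0.0021 with arrays centred on their medians, 0.10 with the mean of its probe sets and 0.22 with the second. IL10RA was 0.014 with arrays centred. The causes were not tested. Calls among the 24 probe sets were 0 under every alternative run, and with leave-one-out from 1 to 5 had an unadjusted limma p under 0.05, where 1064 to 2100 of 54675 probe sets did. With fewer arrays the groups are apart more often: probe sets apart on the higher side numbered from 8 to 9 without 1 array, and on the lower side from 5 to 12, where 28.4% to 35.7% and 31.8% to 34.7% of all probe sets were apart. The STAT3 target median ranged from 0.015 to 0.197 without 1 array. Over all probe sets, calls ranged from 0 to 1 without 1 array. With the number as a replicate block 164 probe sets passed, but 0 of the 24, and IL6 had a limma adjusted p of 0.397. At an unadjusted p under 0.05, the block had 9 of the 24 and 4963 of 54675. The main PTPN1 probe set was among those that passed with the block (limma adjusted p = 0.0154). Same-numbered arrays deviated together (correlation 0.59 over 54675 probe sets), a hint from the data, since no label says what a number stands for. Dim signals limit IL10, IL11, OSM, LIF, IL6R and LIFR, and the IL6ST probe sets 211000_s_at and 204863_s_at.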
